A study of Sus scrofa with 5 samples.

Results

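Bone morphogenetic proteins (BMPs) were followed here through 10 genes fixed by name: the ligands *BMP2*, *BMP4* and *BMP7*, the receptors *BMPR1A* and *BMPR2*, the targets *ID1*, *ID2* and *ID3*, and the inhibitors *BAMBI* and *NOG*. They are 10 of 30029 gene names in the single-cell count files, and all 10 are also listed in the bulk RNA-seq table. All 10 passed the filter on low counts that left 17994 genes for testing.

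BMPs are secreted ligands of the TGF-β family that bind a complex of type I and type II serine/threonine kinase receptors. The activated type I receptor phosphorylates SMAD1, SMAD5 and SMAD9, which enter the nucleus with SMAD4 and switch on targets such as the *ID* genes, whose products block basic helix-loop-helix transcription factors. In early mammalian embryos the pathway is known for its part in trophectoderm, amnion, mesoderm and the choice between neural and surface ectoderm.

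The samples were 2 single-cell libraries of pig blastoids, embryo-like structures grown from pig embryonic stem cells (pESCs) and collected on day 6 in iBlastoid medium, and 3 bulk libraries of pESCs cultured in 4FIXY medium. According to the methods, the iBlastoid medium of every blastoid held added BMP4 protein together with CHIR99021, SB431542, LIF, activin A and further additives, so no blastoid sample without added BMP4 was available for comparison. The paper's 2-step method first held cells in 4FXY medium, listed without BMP4, and then in iBlastoid medium. The pESCs were derived from parthenogenetic blastocysts, although 1 of the 3 column names (IVFP25, PA_4P7 and PAP25) begins with IVF, and were grown on mitomycin C-treated mouse fibroblast feeders. The column names also end in P25 or P7, which may be passages, so an SD over the 3 libraries may include such differences. Blastoids were picked by hand for visible compartments and a cavity. The labels do not say whether the 2 blastoid libraries came from separate cultures, and p-values therefore measure only the spread between these libraries, which may be technical.

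Cells were barcodes with at least 11223 UMIs in library 1 (7369 cells, median of 29728 UMIs) or 9805 UMIs in library 2 (8175 cells, median of 27588 UMIs), and 9 barcodes occurred in both. Cells were gated on 1 gene each: *POU5F1* (809 and 1327 cells in libraries 1 and 2), *CRABP1* (274 and 466), *GABRP* (846 and 866), *TP63* (1010 and 846) and *COL3A1* (548 and 418). A gate needed at least 4 UMIs of its gene and at least 100 CPM (UMIs per 1000000 UMIs of the cell) for *POU5F1* and *TP63* or 300 CPM for the others. The 7410 cells in exactly 1 gate were compared, while 1645 cells passed several gates, 1218 of them *GABRP* and *TP63* alone, and 6489 passed none. The median depth per cell ranged from 19460.5 UMIs in *COL3A1* cells of library 2 to 39576 UMIs in *POU5F1* cells of library 1.

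Marker lists showed what else each gate held, and sums over a list could rest on a few genes. In *COL3A1* cells all 7 mesenchyme or fibroblast markers were highest of the 5 gates in both libraries (sums of 3118 and 3336 CPM against 30.94 to 157.1 CPM), as were all 4 cardiac markers (345.8 and 282.8 CPM). Cells of no gate had cardiac sums of 463.4 and 218.3 CPM. They lay above *COL3A1* cells in both libraries for *MYL4* (84.9 and 41.1 CPM), *TNNT2* (40.9 and 19.1 CPM) and *ACTC1* (177 and 66.7 CPM), but not for *MYL7* (161 and 91.4 CPM). *GATA6* (197 and 210 CPM) and *GATA4* (82.1 and 75.5 CPM) of 5 hypoblast markers were also highest in *COL3A1* cells, while *SOX17* was at 0.94 and 0.22 CPM, *AFP* at 0.07 and 0.22 CPM and *FOXA2* at 0. *CRABP1* cells were highest for 5 of 6 neural markers (sums of 605.3 and 604.7 CPM against 27.82 to 100.8 CPM), with *OTX2* highest in *POU5F1* cells. They were highest for 4 of 5 neural crest and glia markers (sums of 87.15 and 61.9 CPM), while the sums of 109.2 and 99.73 CPM in *COL3A1* cells were nearly all *SNAI2* (108 and 98.2 CPM). *POU5F1* cells were highest for all 7 pluripotency markers (668.1 and 740.4 CPM against 77.46 to 270.4 CPM). *GABRP* cells were highest for 4 of 6 trophectoderm markers (*KRT8*, *KRT18*, *GATA3*, *ELF3*) and 4 of 6 amnion markers (*TAC3*, *ISL1*, *VTCN1*, *IGFBP3*). *KRT8* and *KRT18* made up most of the trophectoderm sums of 16260 and 16270 CPM. *GATA2* and *TFAP2A* were highest in *TP63* cells, and *CDX2* and *HEY1* in *COL3A1* cells. Of the 3 surface ectoderm markers in the files, *KRT5* and *KRT15* were highest in *TP63* cells, both under 1 CPM, and *GRHL3* in *CRABP1* cells (50.3 and 72.4 CPM). The part of cell composition in the results below was not tested.

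Levels below are UMIs of a gene per 1000000 UMIs of all cells of a gate in a library, and they were compared only within a gene. Each gate was tested against the mean of the other 4 gates on the log2 scale with edgeR's quasi-likelihood test, which rescales the sums by TMM factors, and genes with a Benjamini-Hochberg adjusted p under 0.05 were called. Calls were repeated under 12 alternative settings with a test, and the number that kept or changed a call is given where it was not all of them. TMM factors differed between gates, and scaling by library totals alone moved the median log2 fold change of all genes from -0.02 to -0.23 for *GABRP* cells and from near 0 to 0.18 for *CRABP1* cells. The share of called genes that were higher then moved from 52.3% to 29.3% for *GABRP*, from 49.8% to 75.4% for *CRABP1* and from 49.0% to 59.6% for *POU5F1* cells.

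**Figure D1:**
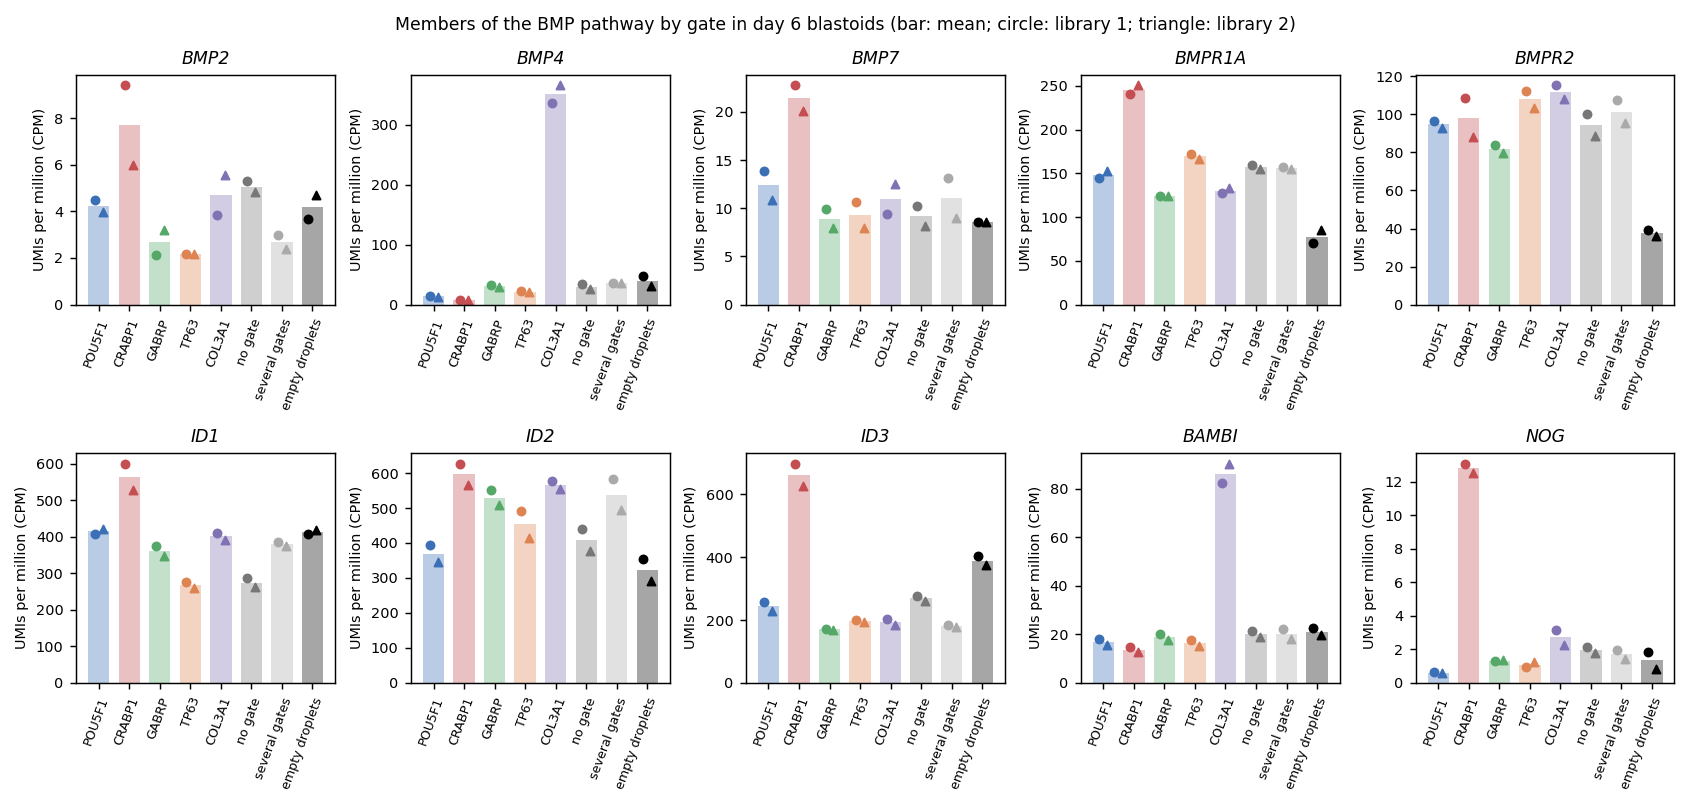
Level of the 10 genes in CPM (y axis from 0) for the 5 gates, cells of no gate, cells of several gates and empty droplets (x axis), with the mean as a bar, library 1 as a circle and library 2 as a triangle. *BMP4* and *BAMBI* stood highest in *COL3A1* cells (means of 351 and 86.4 CPM), and *NOG* and *ID3* in *CRABP1* cells (means of 12.8 and 661 CPM).

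Among the ligands, *BMP4* differed most between gates. Its level was 336 CPM in library 1 and 366 CPM in library 2 in *COL3A1* cells. It was 32.5 and 29.1 CPM in *GABRP* cells, 22.6 and 21.1 CPM in *TP63* cells, 14.7 and 13.4 CPM in *POU5F1* cells and 8.26 and 7.13 CPM in *CRABP1* cells. No neighbours in this order overlapped between libraries, and the mean in the highest gate was 45.6 times that in the lowest. *BMP4* was higher in *COL3A1* cells by 4.48 ± 0.05 (log2 fold change ± SE, adjusted p = 1.419e-14), rank 146 of 17989 genes from the highest. It fell by 2.67 ± 0.10 in *CRABP1* cells, rank 138 from the lowest, by 1.47 ± 0.07 in *POU5F1* cells and by 0.59 ± 0.07 in *TP63* cells. *TP63* cells still lay above *POU5F1* and *CRABP1* cells, and the mean they were compared with included *COL3A1* cells. For *GABRP* cells the log2 fold change was 0.25 ± 0.06 (adjusted p = 0.0049), although their level lay below the arithmetic mean of the other gates (98.6 CPM), because the comparison is made on logarithms. This call was lost under 3 of the 12 alternatives, with values from 0.04 to 0.08 and adjusted p up to 0.65 at library totals.

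*COL3A1* cells held 41.97% and 35.9% of all *BMP4* UMIs in the cells of libraries 1 and 2, while they held 5.85% and 3.47% of all UMIs. Thinned to 9000 UMIs per cell, 84.5% ± 1.05 of *COL3A1* cells had a *BMP4* UMI (SD, n = 2 libraries, 94.8% unthinned), against 5.60% ± 0.34 of *CRABP1* cells (15.2% unthinned). Empty droplets, taken as barcodes with 10 to 100 UMIs, held *BMP4* at 47.6 and 31.1 CPM. At most 10.4% of the UMIs of a gate could come from such free RNA, set by the gate gene with the lowest ratio of its level in the gate to its level in empty droplets. That corresponded to at most 4.45 and 2.93 CPM of *BMP4* in *CRABP1* cells.

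*BMP7* and *BMP2* were low and reached their highest level in *CRABP1* cells. *BMP7* had 22.7 and 20.1 CPM there, and between 7.91 and 13.8 CPM in the other gates, whose values overlapped from each gate to the next. It was higher in *CRABP1* cells by 0.87 ± 0.14 (adjusted p = 0.000313) and fell by 0.43 ± 0.14 in *TP63* cells (adjusted p = 0.021), a call lost under 3 of the 12 alternatives (adjusted p up to 0.089). *BMP2* had 9.40 and 6.00 CPM in *CRABP1* cells and was lowest in *TP63* cells, at 2.19 and 2.16 CPM, which overlapped *GABRP* cells at 2.15 and 3.19 CPM. In *GABRP* cells it was not called (-0.45, adjusted p = 0.080) but was lower under 7 of the 12 alternatives, and the value was -0.80 without library 2 and -0.15 without library 1. Its log2 fold change was 1.02 ± 0.20 in *CRABP1* cells (adjusted p = 0.0014). Without library 2 this was 1.46 and without library 1 it was 0.60, and it rests on 74 UMIs in each library.

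The receptors varied less than the ligands. *BMPR1A*, a type I receptor of BMP2 and BMP4, was highest in *CRABP1* cells with 240 and 250 CPM, followed by *TP63* cells with 173 and 166 CPM and *POU5F1* cells with 145 and 152 CPM. *COL3A1* cells (127 and 134 CPM) and *GABRP* cells (124 CPM in both) were lowest, and no neighbours in this order overlapped, although *COL3A1* and *GABRP* cells changed places under TMM. It was higher in *CRABP1* cells by 0.61 ± 0.05 and fell by 0.30 ± 0.05 in *COL3A1*, by 0.23 ± 0.05 in *GABRP* and by 0.20 ± 0.05 in *POU5F1* cells. In *TP63* cells the log2 fold change was 0.12 ± 0.05 (adjusted p = 0.057), and it was called higher under 5 of the 12 alternatives, among them the library as a replicate block (adjusted p = 0.016). The value was 0.17 without library 2 and 0.06 without library 1.

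*BMPR2*, the type II receptor, was the flattest of the 10 genes, from 79.5 CPM in *GABRP* cells of library 2 to 115 CPM in *COL3A1* cells of library 1. Values overlapped between neighbours from *COL3A1* through *TP63* and *CRABP1* to *POU5F1* cells. The calls were 0.29 ± 0.06 in *COL3A1* cells, 0.17 ± 0.06 in *TP63* cells (adjusted p = 0.043) and a fall by 0.19 ± 0.07 in *CRABP1* cells (adjusted p = 0.036). The last value was -0.09 without library 2 and -0.29 without library 1, and its call was lost under 3 of the 12 alternatives (at library totals -0.01, adjusted p = 0.92). The call in *TP63* cells was lost under 5 (values from 0.14 to 0.15, adjusted p up to 0.12). *BMPR2* was called lower in *POU5F1* cells under 6 alternatives and in *GABRP* cells under 2, among them the replicate block (-0.14, adjusted p = 0.0093, and -0.11, adjusted p = 0.041).

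The 3 *ID* genes, which encode inhibitors of DNA binding and are direct SMAD targets, did not share a pattern over the gates. *ID3* had 697 and 625 CPM in *CRABP1* cells, 259 and 228 CPM in *POU5F1* cells, 200 and 193 CPM in *TP63* cells, 204 and 186 CPM in *COL3A1* cells and 173 and 169 CPM in *GABRP* cells. *CRABP1* cells stood clear of all the others, and only *TP63* and *COL3A1* cells overlapped. *ID3* was higher in *CRABP1* cells by 1.54 ± 0.05 (adjusted p = 1.354e-10). Against means that included *CRABP1* cells it fell in the other 4 gates, by 0.50 in *GABRP*, 0.47 in *TP63* and 0.42 in *COL3A1* cells. It also fell by 0.16 in *POU5F1* cells, although their level lay above those of *TP63*, *COL3A1* and *GABRP* cells. The last call was lost under 3 of the 12 alternatives (adjusted p up to 0.26).

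Among the gates, *ID1* was also highest in *CRABP1* cells (600 and 528 CPM) and lowest in *TP63* cells (277 and 261 CPM), with the 3 other gates from 347.5 to 421 CPM. Cells of no gate had *ID1* at 286 and 263 CPM, which overlapped *TP63* cells, so a low level was not particular to that gate. The log2 fold change of *ID1* was 0.48 ± 0.05 in *CRABP1* cells (adjusted p = 5.054e-06) and it fell by 0.68 ± 0.05 in *TP63* cells (adjusted p = 5.073e-07). The values in the 3 other gates depended on the setting. In *GABRP* cells the value was 0.07 (adjusted p = 0.25), with calls in both directions among the alternatives. It was higher with doubled gate thresholds (0.17, adjusted p = 0.0049) and with cells of no gate as a further group (0.19, adjusted p = 0.0043), and lower at library totals (-0.14, adjusted p = 0.027). In *POU5F1* cells the value was 0.03 (adjusted p = 0.67), and it was called higher under the first 2 of these settings (0.13 and 0.12, adjusted p = 0.024 and 0.038). In *COL3A1* cells, where *BMP4* was highest, *ID1* was at 412 and 390 CPM, a log2 fold change of 0.10 ± 0.05 (adjusted p = 0.095). It was called higher under 4 of the 12 alternatives, with halved gate thresholds (0.19, adjusted p = 0.0045), cells of no gate as a further group (0.21, adjusted p = 0.0026), doublets removed (0.14, adjusted p = 0.040) and the replicate block (0.10, adjusted p = 0.037), and was -0.07 with doubled thresholds (adjusted p = 0.23).

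*ID2* was lowest in *POU5F1* cells, at 394 and 345 CPM, where it fell by 0.61 ± 0.06 (adjusted p = 5.182e-06). The gate with the highest *ID2* depended on the scaling. By totals it was *CRABP1* cells with 626 and 566 CPM, which overlapped *COL3A1* cells with 578 and 556 CPM. Under TMM, *ID2* was called higher in *GABRP* cells (0.33 ± 0.06) and *COL3A1* cells (0.30 ± 0.06) and not in *CRABP1* cells (0.15 ± 0.06, adjusted p = 0.077). At library totals the call was made in *CRABP1* cells (0.33, adjusted p = 0.0015) and lost in *GABRP* cells (adjusted p = 0.15), and 4 of the 12 alternatives called it in *CRABP1* cells, among them the replicate block (adjusted p = 0.0026). In *TP63* cells *ID2* fell by 0.17 (adjusted p = 0.049), a value of -0.10 without library 2 and -0.24 without library 1, and the call was lost under 6 of the 12 alternatives (values from -0.07 to -0.16, adjusted p up to 0.44). The 1218 cells that passed both *GABRP* and *TP63* are not part of the *TP63* values. They had *ID1* at 393 and 361 CPM, *ID2* at 612 and 528 CPM and *ID3* at 175 and 149 CPM.

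Empty droplets held *ID3* at 402 and 375 CPM, above every gate but *CRABP1* cells, and *ID1* at 407 and 420 CPM, within the range of the gates. Free RNA could make up at most 41.9 CPM of *ID3* in any gate and library, and 37.7 and 35.3 CPM in *CRABP1* cells. Over single cells thinned to 9000 UMIs, the correlation of log2(UMIs + 1) between *ID1* and *ID3* ranged from 0.23 to 0.45 over 5 gates and 2 libraries. That between *BMP4* and *ID1* ranged from -0.09 to 0.05. Outside *COL3A1* cells most thinned cells held no *BMP4* UMI, which limits how far its correlations can lie from 0. In *COL3A1* cells, where most cells held *BMP4*, they were -0.09 and -0.04. Cells of a library share its preparation, and these values are descriptions.

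Among the inhibitors, *BAMBI*, a membrane pseudoreceptor that lacks the kinase domain, was highest in *COL3A1* cells, as *BMP4* was. *BAMBI* had 82.3 and 90.4 CPM there. The other gates lay between 12.7 and 20.2 CPM, lowest in *CRABP1* cells. It was higher in *COL3A1* cells by 2.46 ± 0.07 (adjusted p = 2.667e-11). Against means that included *COL3A1* cells, it fell by 1.12 ± 0.11 in *CRABP1*, by 0.64 ± 0.08 in *POU5F1* and by 0.58 ± 0.08 in *TP63* cells. The levels in *POU5F1* cells (18.1 and 15.6 CPM) overlapped those in *GABRP* cells (20.2 and 17.6 CPM) and *TP63* cells (17.8 and 15.3 CPM). In the thinned cells 55.6% ± 0.41 of *COL3A1* cells had a *BAMBI* UMI, against 9.07% to 15.1% of the other gates (SD, n = 2; 79.7% and 22.1% to 41.97% unthinned). Within *COL3A1* cells the correlation of *BAMBI* with *BMP4* was 0.15 and 0.11.

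Both *BMP4* and *BAMBI* were highest in *COL3A1* cells. Their lower calls in *CRABP1*, *POU5F1* and *TP63* cells were against means that included *COL3A1* cells and are not separate observations. The 250 bases before the annotated start of each are shown because both were highest in the same gate. They were read from the Sscrofa11.1 genome (susScr11), and capitals mark GGCGCC and CAGAC on either strand, letters known from SMAD-bound elements of BMP and TGF-β target genes.
*BMP4* (chr1:183422889-183423138, minus strand): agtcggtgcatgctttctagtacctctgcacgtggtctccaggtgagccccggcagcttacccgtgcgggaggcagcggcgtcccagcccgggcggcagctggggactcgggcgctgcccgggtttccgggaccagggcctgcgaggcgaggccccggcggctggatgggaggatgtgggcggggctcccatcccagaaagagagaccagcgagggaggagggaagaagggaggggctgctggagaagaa
*BAMBI* (chr10:40053118-40053367, plus strand): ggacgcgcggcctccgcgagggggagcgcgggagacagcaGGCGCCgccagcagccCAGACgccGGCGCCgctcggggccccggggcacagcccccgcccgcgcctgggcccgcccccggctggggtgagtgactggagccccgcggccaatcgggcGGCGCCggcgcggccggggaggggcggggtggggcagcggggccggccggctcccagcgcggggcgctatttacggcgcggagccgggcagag
The *BAMBI* stretch held 3 matches of GGCGCC and 1 of CAGAC, and the *BMP4* stretch held neither. Of 19556 promoters of the same length, 16.1% held GGCGCC and 39% CAGAC. The *BAMBI* stretch was 84% G and C and the *BMP4* stretch 69.6%, and the shares over promoters were not matched for base content. Of the 10 genes, *BMP2* (1) and *BMPR1A* (2) also held GGCGCC, and *BMP2*, *BMP7* and *ID1* held 1 CAGAC each. A match is a description of letters only. For *NOG* the annotation starts at the coding sequence, so the stretch before it need not be its promoter.

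The corresponding stretches of *ID1* and *ID3* are shown because both genes were highest in *CRABP1* cells.
*ID1* (chr17:35316268-35316517, plus strand): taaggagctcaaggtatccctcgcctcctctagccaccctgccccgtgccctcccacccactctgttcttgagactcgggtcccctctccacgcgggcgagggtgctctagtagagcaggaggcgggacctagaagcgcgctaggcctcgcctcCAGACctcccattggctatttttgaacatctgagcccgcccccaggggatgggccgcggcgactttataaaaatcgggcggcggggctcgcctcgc
*ID3* (chr6:81424170-81424419, minus strand): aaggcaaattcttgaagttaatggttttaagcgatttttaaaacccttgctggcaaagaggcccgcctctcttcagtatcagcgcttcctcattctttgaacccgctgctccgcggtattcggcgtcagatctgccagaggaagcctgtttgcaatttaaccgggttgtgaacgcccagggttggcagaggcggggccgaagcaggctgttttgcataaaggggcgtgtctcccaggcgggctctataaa
*ID1* spans chr17:35316518-35317742 on the plus strand with 2 exons, and *ID3* spans chr6:81422541-81424169 on the minus strand with 4 exons. The *ID1* stretch held 1 CAGAC and no GGCGCC, and the *ID3* stretch held neither.

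*NOG*, a secreted protein that binds BMP2 and BMP4 and keeps them from their receptors, was low and set *CRABP1* cells apart. Its level was 13.1 and 12.6 CPM in *CRABP1* cells, from 103 and 155 UMIs. It was 3.16 and 2.28 CPM in *COL3A1*, 1.30 and 1.37 CPM in *GABRP*, 0.98 and 1.22 CPM in *TP63* and 0.62 and 0.58 CPM in *POU5F1* cells, with no overlap between neighbours. *NOG* was higher in *CRABP1* cells by 3.17 ± 0.15 (adjusted p = 4.709e-09), rank 197 of 17989 genes from the highest, and fell by 2.24 ± 0.20 in *POU5F1* cells, rank 168 from the lowest. It was also called higher in *COL3A1* cells (0.66 ± 0.20, adjusted p = 0.012) on the log scale, although its mean level there (2.72 CPM) lay below the arithmetic mean of the other gates (3.96 CPM). The log2 fold change was 0.89 without library 2 and 0.33 without library 1. *CRABP1* cells held 19.7% and 30.5% of all *NOG* UMIs and 3.10% and 4.66% of all UMIs. In the thinned cells 12.1% ± 0.13 of *CRABP1* cells had a *NOG* UMI, against 0.51% to 2.33% of the other gates (25.6% against 2.08% to 6.04% unthinned).

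By gate, *CRABP1* cells had 6 of the 10 genes called higher (*NOG*, *ID3*, *BMP2*, *BMP7*, *BMPR1A*, *ID1*) and 3 lower (*BMP4*, *BAMBI*, *BMPR2*), where 20.2% and 20.3% of all genes tested were called higher and lower. *COL3A1* cells had 5 higher (*BMP4*, *BAMBI*, *NOG*, *ID2*, *BMPR2*) and 2 lower (*ID3*, *BMPR1A*), against 26.5% and 25.6% of all genes. *TP63* cells had 1 higher (*BMPR2*) and 8 lower, with *BMPR1A* not called, against 21.7% and 20.4%. *POU5F1* cells had 0 higher and 6 lower (*NOG*, *BMP4*, *BAMBI*, *ID2*, *BMPR1A*, *ID3*), against 26.8% and 27.8%, and 0 were higher at an unadjusted p under 0.05 or in DESeq2, while 2 of the 12 alternatives called *ID1* higher there. *GABRP* cells had 2 higher (*ID2*, *BMP4*) and 3 lower (*NOG*, *ID3*, *BMPR1A*), against 27.9% and 25.4%, and at library totals 0 higher and 8 lower, where 18.0% and 43.4% of all genes were called. In *CRABP1* cells library totals gave 7 higher and 2 lower, where 35.6% and 11.6% of all genes were called. The *NOG* call in *GABRP* cells was lost under 3 of the 12 alternatives (adjusted p up to 0.26). Of the genes not called, *BMP7* was lower in *GABRP* cells under 3 alternatives and *BAMBI* under 2, and *BMP2* was higher in *COL3A1* cells under 1. The median log2 fold change of the 10 genes was 0.54 in *CRABP1*, 0.30 in *COL3A1*, -0.18 in *GABRP* and *POU5F1* and -0.52 in *TP63* cells, where that of all genes lay from -0.02 to 0. The 5 comparisons share the same sums, so their calls are not independent. Each mean includes the highest gate unless that gate is tested, so a gene high in 1 gate can be called lower in several others. *ID3* in *POU5F1* cells (259 and 228 CPM) lay above *TP63*, *COL3A1* and *GABRP* cells. *BMP4* in *TP63* cells (22.6 and 21.1 CPM) lay above *POU5F1* and *CRABP1* cells. *BAMBI* in *POU5F1* cells overlapped *GABRP* and *TP63* cells.

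**Figure D2:**
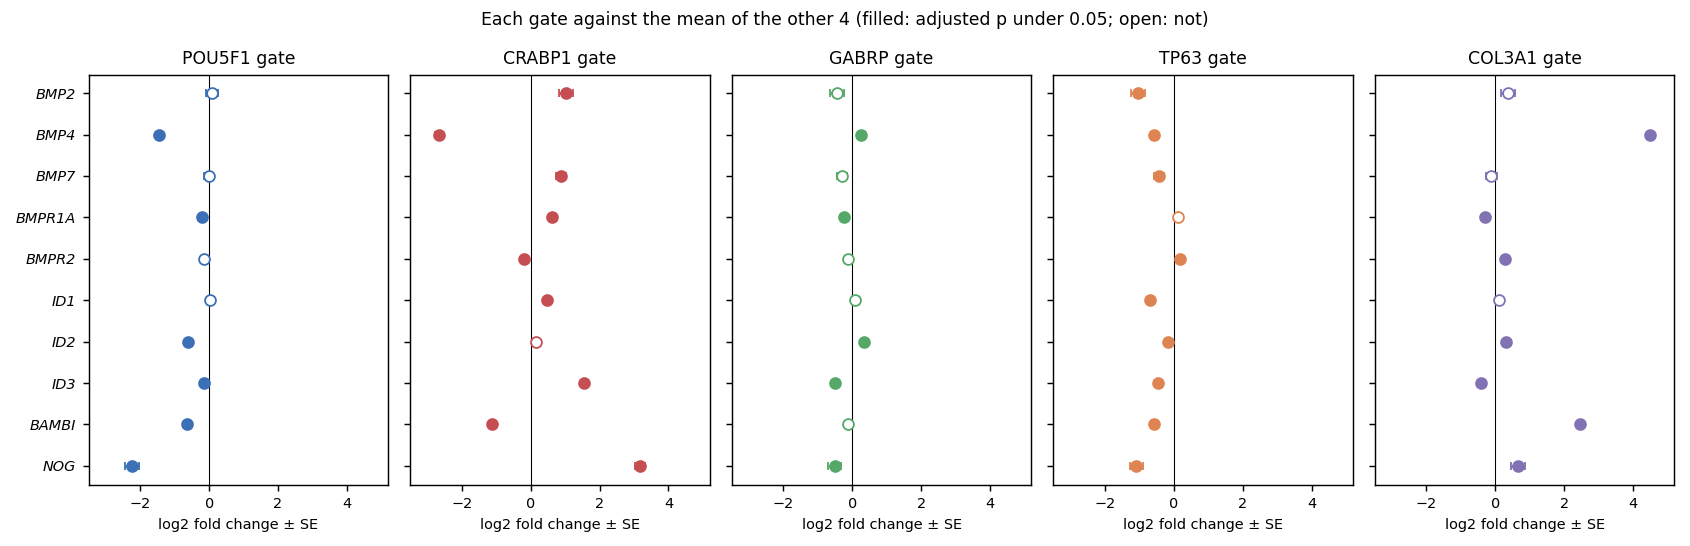
Log2 fold change ± SE (x axis) of the 10 genes (y axis) in each gate against the mean of the other 4, with filled points for an adjusted p under 0.05 and open points for the others. *BMP4* reached 4.48 in *COL3A1* cells and -2.67 in *CRABP1* cells, and *BMPR2* stayed between -0.19 and 0.29 in all 5 panels.

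Cells within a gate also differed. The genes used to divide each gate at 100 CPM were chosen after values had been seen, and the ratios are descriptions. *POU5F1* cells with *DNMT3B*, a DNA methyltransferase of pluripotent cells (292 and 605 cells), had *ID1* at 546 and 529 CPM against 321 CPM in both libraries in cells without it. They had *BMP4* at 6.09 and 5.50 CPM against 20.2 and 20.8 CPM, and *BAMBI* at 14.1 and 10.6 CPM against 20.7 and 20.2 CPM. *ID3* was at 1.32 times the level of cells without *DNMT3B* in both libraries, and *ID2* at 0.82 and 0.77 times. The levels of *ID1* and *ID3* were thus higher and those of *BMP4* and *ID2* lower in both libraries, and the cells with *DNMT3B* had more UMIs (medians of 44399.5 and 38744 against 37051 and 33763).

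*COL3A1* cells with *MYL7*, a myosin light chain of heart muscle (248 and 157 cells), had *ID1*, *ID2* and *ID3* at 1.21 to 1.37 times the level of those without it. For *BMP4* the ratios were 1.05 and 1.17. *GABRP* cells with *TAC3*, a neurokinin (295 and 276 cells), had *ID1* at 1.35 and 1.37 times and *BMP4* at 0.60 and 0.69 times the level of those without it. *ID2* was at 1.04 and 1.11 times and *ID3* at 0.90 and 0.99 times. The 34 *CRABP1* cells of each library with *SCRG1*, a gene of glia and neural crest, had *ID3* at 963 and 1301 CPM against 660 and 576 CPM. They had *BAMBI* at 40.7 and 29.9 CPM against 11.14 and 11.5 CPM and *ID1* at 280 and 296 CPM against 644 and 545 CPM, so that *ID1* and *ID3* differed in opposite directions.

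**Figure D3:**
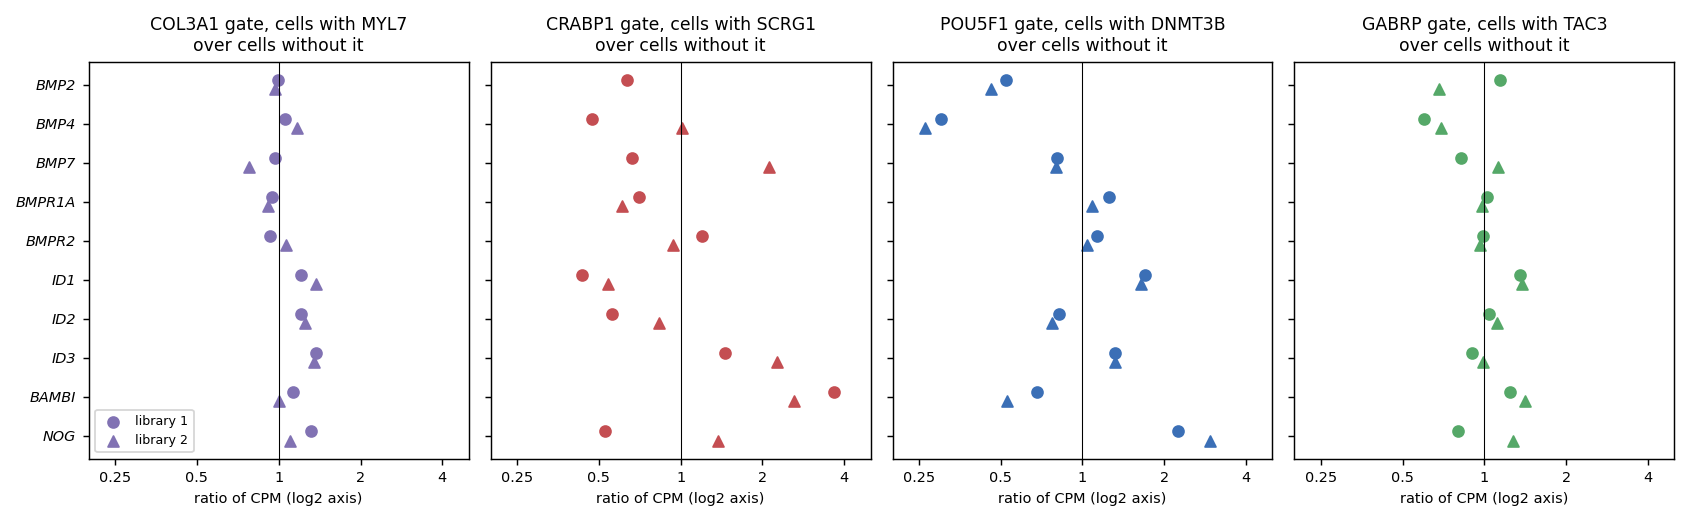
Ratio of CPM (x axis, log2 scale) of the 10 genes (y axis) between cells with and without a second gene in 4 gates, for library 1 (circles) and library 2 (triangles), with a line at equal levels. *ID1* lay above the line in *POU5F1* cells with *DNMT3B* (1.70 and 1.65) and below it in *CRABP1* cells with *SCRG1* (0.43 and 0.54).

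Of 48 other genes of the pathway, 47 were in the files and 40 were tested. In *COL3A1* cells 20 (50%) were called higher and 8 (20%) lower, beside 26.5% and 25.6% of all genes, with a median log2 fold change of 0.33. In *CRABP1* cells 17 (42.5%) were higher and 6 (15%) lower, beside 20.2% and 20.3%, with a median of 0.16. In *POU5F1* cells 9 (22.5%) were higher and 20 (50%) lower, beside 26.8% and 27.8%, with a median of -0.37. In *GABRP* cells 8 (20%) and 15 (37.5%) were called, beside 27.9% and 25.4%, and in *TP63* cells 9 (22.5%) and 13 (32.5%), beside 21.7% and 20.4%, both with a median of -0.12. The shares called higher in *POU5F1* and *TP63* cells lay near those of all genes. At library totals *GABRP* cells had 6 higher and 22 lower (median of -0.34, beside 18.0% and 43.4% of all genes called) and *CRABP1* cells 21 higher and 4 lower (median of 0.34, beside 35.6% and 11.6%).

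Extracellular antagonists made up the largest group, with 12 tested. In *CRABP1* cells 7 were higher and 1 lower, beside 20.2% and 20.3% of all genes. *GREM1*, which binds BMP2 and BMP4, was at 39.6 and 38.6 CPM there, against means of 1.14 and 0.87 CPM over the other gates, a log2 fold change of 5.42 ± 0.16 (adjusted p = 7.261e-11). *SOSTDC1* (3.32 ± 0.56) and *CHRDL2* (2.18 ± 0.30) also rose in *CRABP1* cells, both under 2 CPM. In *POU5F1* cells *FST*, an activin antagonist that also binds BMPs, rose by 2.71 ± 0.09, at 112 and 138 CPM, and it rose by 2.02 ± 0.11 in *COL3A1* cells, at 78.3 and 80.0 CPM. *FST* fell by 2.27 ± 0.15 in *GABRP* cells and fell by 2.62 ± 0.14 in *TP63* cells, and *GREM1* fell by 3.07 ± 0.31 in *TP63* cells. *CRIM1* fell by 1.04 ± 0.07 in *CRABP1* cells. *TOB1*, counted in this group, is an intracellular protein.

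Among 6 other targets, *HAND1* and *MSX1*, transcription factors of mesoderm and extraembryonic tissue, were highest in *COL3A1* cells. *HAND1* was at 721 and 733 CPM there (4.33 ± 0.12, adjusted p = 1.272e-11) and *MSX1* at 244 and 266 CPM (4.17 ± 0.12, adjusted p = 2.023e-11). *HAND1* rose in *GABRP* cells as well (2.73 ± 0.12), at 298 and 250 CPM, and fell in the other gates, by 3.59 ± 0.22 in *CRABP1*, by 2.38 ± 0.17 in *POU5F1* and by 1.08 ± 0.15 in *TP63* cells. *MSX1* fell by 2.07 ± 0.18 in *TP63* cells, where 5 of the 6 targets were lower (20.4% of all genes) and 0 higher (21.7%). *DLX5* fell by 1.98 ± 0.20 in *COL3A1* cells and was called higher in *POU5F1* (1.29 ± 0.14) and *CRABP1* cells (0.77 ± 0.16). *ATOH8* fell by 2.22 ± 0.37 in *GABRP* cells, under 1 CPM, and rose by 3.19 ± 0.23 in *COL3A1* cells, at 8.95 and 7.93 CPM. It also rose by 1.46 ± 0.29 in *CRABP1* cells and fell by 1.45 ± 0.32 in *TP63* and by 0.97 ± 0.28 in *POU5F1* cells.

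Of the inhibitory SMADs and ubiquitin ligases, 3 of 4 were higher in *COL3A1* cells (26.5% of all genes), and all 4 were lower in *POU5F1* cells (27.8% of all genes). Among the other ligands, *BMP5* fell by 3.29 ± 0.19 in *POU5F1* cells and rose by 1.74 ± 0.14 in *COL3A1* cells, at 81.9 and 93.8 CPM, and by 1.46 ± 0.13 in *GABRP* cells, at 76.5 and 60.6 CPM. *GDF6* rose by 2.24 ± 0.13 in *GABRP* and by 1.55 ± 0.13 in *TP63* cells and fell by 2.58 ± 0.26 in *CRABP1* and by 1.69 ± 0.18 in *POU5F1* cells, at under 10 CPM in these gates. *GDF3* rose by 3.10 ± 0.48 in *POU5F1* cells at 0.88 and 1.60 CPM, and *BMP3* fell by 1.98 ± 0.38 in *COL3A1* cells at 0.27 and 0.33 CPM and rose by 1.06 ± 0.20 in *POU5F1* cells.

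Of 5 other receptors, *BMPR1B* rose by 0.55 ± 0.06 in *TP63* cells, at 198 and 196 CPM, and by 0.50 ± 0.07 in *CRABP1* cells, at 202 and 220 CPM. It fell by 1.24 ± 0.07 in *POU5F1* cells, at 75.9 and 76.2 CPM. *ACVRL1* was called higher in *COL3A1* cells (3.28 ± 0.62) at 0.88 and 2.28 CPM, and in *GABRP* cells it was at 0.07 CPM in library 1 and 0 in library 2. The co-receptor *RGMA* rose by 1.91 ± 0.06 in *POU5F1* cells (60.8 and 61.8 CPM) and by 1.71 ± 0.07 in *CRABP1* cells (61.0 and 55.4 CPM). It fell in the other gates, by 1.36 ± 0.08 in *GABRP*, by 1.23 ± 0.10 in *COL3A1* and by 1.02 ± 0.08 in *TP63* cells. *SMAD9* fell by 2.21 ± 0.24 in *POU5F1* cells, under 1 CPM, and rose by 1.05 ± 0.23 in *CRABP1* cells (2.92 and 3.48 CPM) and by 0.63 ± 0.19 in *TP63* cells (2.56 and 2.09 CPM).

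**Figure D4:**
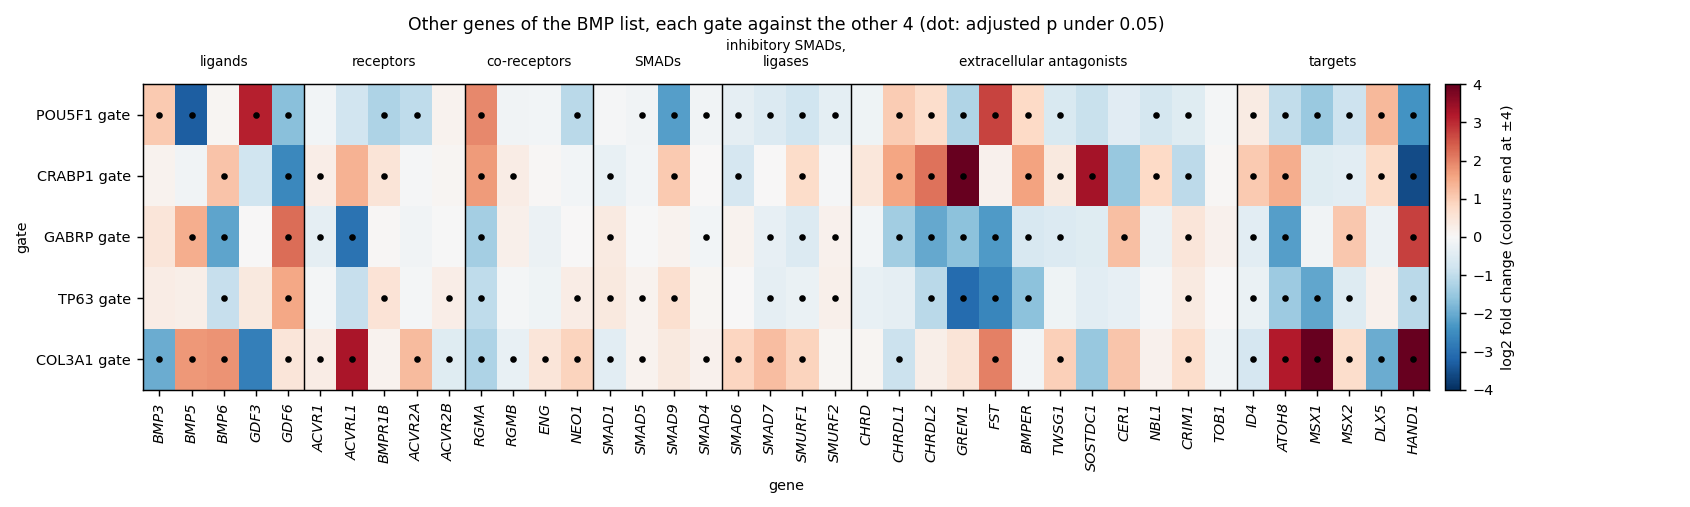
Log2 fold change (colour, ending at ±4) of the 40 other pathway genes tested (columns, by role) in each gate against the other 4 (rows), with a dot for an adjusted p under 0.05. *HAND1* and *MSX1* were highest in *COL3A1* cells (4.33 and 4.17) and *GREM1* in *CRABP1* cells (5.42).

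The genes whose log2(CPM + 1) over the 10 sums was most like that of *BMP4* were *RND3* (Pearson r = 0.999) and *KCNE1* (r = 0.992), and for *BAMBI* they were *TRAF5* and *WNT2* (r = 0.996 and 0.995). For *NOG* they were *ALK* and *LGI4* (r = 0.988 and 0.985), for *ID3* *KRT27* and *CCDC33* (r = 0.994 and 0.991), for *ID1* *PTMS* and *PCSK6* (r = 0.981 and 0.978) and for *ID2* *PLEKHM2* and *TM9SF1* (r = 0.971 and 0.966). For *BMPR1A* they were *MACF1* and *SEC31B* (both r = 0.98), for *BMPR2* *DDHD1* and *TOR1AIP1* (r = 0.977 and 0.970), for *BMP2* *VEGFD* and *UBAC1* (r = 0.968 and 0.955) and for *BMP7* *LOC100620470* and *BCAS1* (r = 0.977 and 0.967). These are the highest of 17993 correlations over sums that share their libraries.

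In pESCs, FPKM values are scaled by transcript length and allow a comparison between genes within a library. *ID3* and *ID1* were the highest of the 10 genes. *ID3* had 77.9 FPKM in IVFP25, 142 FPKM in PAP25 and 37.8 FPKM in PA_4P7 (86.0 ± 52.7 FPKM, mean ± SD, n = 3). In the order IVFP25, PA_4P7 and PAP25, which is kept below, *ID1* had 83.8, 52.5 and 84.7 FPKM (73.7 ± 18.4), which overlapped *ID3*. Both lay at a mean percentile of 94.6 to 95.1 among genes above 0 FPKM. *ID2* was lower than both in every library, at 5.36, 2.22 and 17.3 FPKM.

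*BMPR1A* (10.6, 13.5 and 14.2 FPKM) and *BAMBI* (9.77, 11.8 and 15.3 FPKM) varied least between libraries. *BMPR2* had 5.00, 9.07 and 5.75 FPKM. Of the ligands, *BMP7* was highest in every library at 4.63, 4.12 and 12.7 FPKM, while *BMP2* had 1.67, 2.08 and 5.76 FPKM and *BMP4* 1.45, 0.688 and 9.25 FPKM. *NOG* was under 1 FPKM in IVFP25 (0.335) and PA_4P7 (0.194) and at 1.43 FPKM in PAP25. In all, 8 of the 10 genes had at least 1 FPKM in every library, and 9 without PA_4P7. By the mean over libraries, 9 of the 10 had at least 1 FPKM, beside 11720 of 29886 gene symbols. *FST* was the highest other pathway gene, at 205, 184 and 200 FPKM.

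PAP25 held the highest value for 9 of the 10 genes, and for 8 of the 9 with a mean of at least 1 FPKM, where 32.5% of 11720 such genes were highest in PAP25. *BMP4* was 8.66 times, *NOG* 5.40 times, *ID2* 4.56 times and *BMP2* 3.07 times the mean of the other libraries there, while *BMPR2* was 0.817 times. The 5 hypoblast markers summed to 117 FPKM in PAP25 against 15.4 and 17.8 FPKM in IVFP25 and PA_4P7, most of it *FOXA2* (81.8 against 13.15 and 15.48 FPKM). *SOX17* was at 26.1 against 1.73 and 1.82 FPKM, and *AFP* was listed at 0 in all 3. The sum of the 6 trophectoderm markers was also highest in PAP25 (1832 against 1373 and 998 FPKM), most of it *KRT8* (1448 FPKM). Of these markers, *KRT18* was highest in IVFP25 (398 FPKM) and *ELF3* lowest in PAP25 (1.79 FPKM). The sum of the 7 pluripotency markers was lowest in PAP25 (1369 against 1745 and 1770 FPKM), although *SALL4* was highest there (100 FPKM). The 7 mesenchyme or fibroblast markers, 1 of them at 0, summed to 8.06 to 9.36 FPKM in the 3 libraries. *CHRD*, a BMP antagonist, was at 130 FPKM in PAP25 and 19.4 FPKM in both others. The part of other cells in these values was not tested, and in bulk RNA fewer cells of a type and less RNA per cell cannot be told apart.

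**Figure D5:**
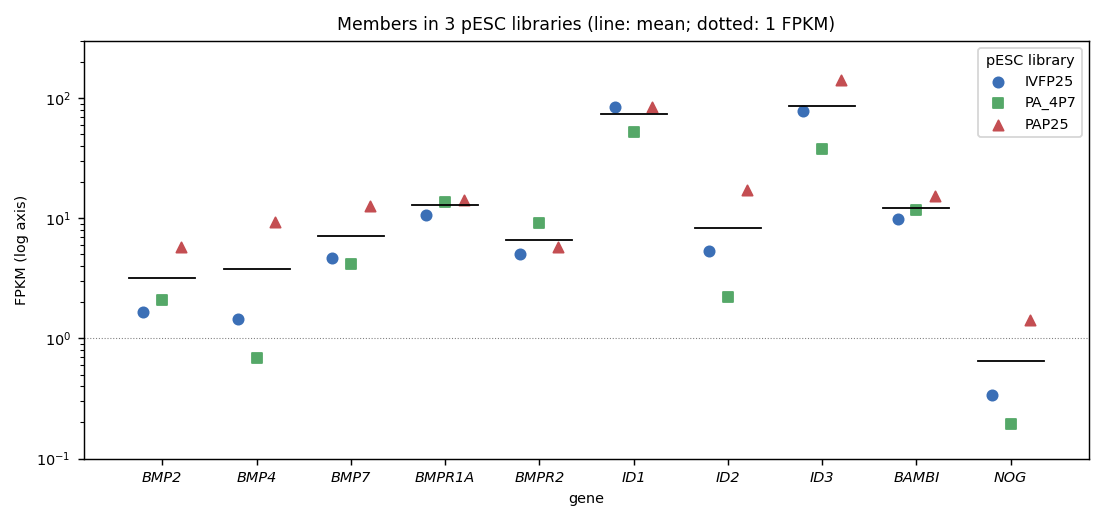
FPKM (y axis, log scale) of the 10 genes (x axis) in the 3 pESC libraries, with the mean as a line and 1 FPKM dotted. *ID1* and *ID3* stood highest (means of 73.7 and 86.0 FPKM), and PAP25 (triangles) was the highest library for every gene but *BMPR2*.

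Transcripts of *BMPR1A* were split differently between libraries. The transcript that starts at chr14:87743270, with 13 exons, had 4.02, 3.38 and 12.6 FPKM. The transcript that starts at chr14:87743384, with 14 exons, had 6.48, 9.22 and 0.350 FPKM. Both carry the same coding sequence (chr14:87854761-87887817 in Sscrofa11.1, 532 codons) and differ in their 5′ exons, so StringTie's division of reads between them is uncertain and the summed value was used.

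Levels in pESCs are per length and those in blastoids are not, and the platforms were normalized separately, so no fold change between pESCs and blastoid cells was computed.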

How the data were processed

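Blastoids were profiled by 10x Genomics single-cell RNA-seq (2 libraries) and pESCs by bulk RNA-seq (3 libraries). The authors aligned and counted the single-cell reads to susScr11 (Cell Ranger 7.1.0 in the submitters' processing notes), and the deposited values are raw UMI counts of all barcodes. The authors processed bulk reads with Trim Galore 0.6.4, HISAT2 2.2.1 and StringTie 2.2.1 and deposited FPKM per RefSeq transcript, which were summed per gene symbol here. The FPKM columns carry names and no replicate number, and their depth is unknown. The members, lists and gates were chosen with earlier results of these data known.

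UMIs were summed per library and gate (10 sums) and tested in edgeR 4.0.16 (R 4.3.3) with TMM, filterByExpr and the quasi-likelihood test, each gate against the mean of the other 4, with Benjamini-Hochberg adjustment over 17994 genes. The 5 gate genes were left out of the counts of called genes. The SE was the log2 fold change divided by the square root of F. The sums held 7867270 to 51943600 UMIs. On simulated counts for the *CRABP1* comparison over 17340 genes, the test found 198 of the 200 genes given a change and called 11 of the 17140 others. The changed genes were drawn from those with more counts, and their changes were larger than many called here. The simulation used 1 mean per gene for all gates, 1 dispersion (0.0035) and no library effect. It therefore cannot give the power or error rate for small changes or low counts. Gates of a library come from 1 preparation. Deviations of the sums from gate means correlated between gates at 0.056 to 0.20 over 17994 genes, so the library was a replicate block in an alternative.

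Doublets were kept in the main analysis. Scrublet's automatic threshold (scanpy 1.11.5) marked 1 and 0 cells, so the highest scores at 0.8% per 1000 cells (434 and 535 cells) were removed in an alternative. Other alternatives changed the gates, the filters, the normalization and the test (DESeq2 1.42.0). Named pathway genes were, per gate, up to 3 called with the largest positive and up to 3 with the largest negative log2 fold change whose CPM in both libraries lay on that side of the mean of the other gates, and the 2 most alike genes per member by Pearson correlation. Promoters were read from the Sscrofa11.1 genome with pysam 0.24.0. Intervals for counting error were not used, since errors are given over libraries. Protein sequences were not used here.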

Additional observations from a re-analysis of the deposited data

How the results depend on the processing

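Of 504 alternative values for the members called, 0 reversed, 27 lost the call and 18 moved by over 1 SE when 1 library was left out. Calls lost in at least 1 alternative were *BMP4*, *ID2* and *NOG* in *GABRP* cells, *BMP7*, *BMPR2* and *ID2* in *TP63* cells, *BMPR2* in *CRABP1* cells and *ID3* in *POU5F1* cells, and the cause was not tested. Signs turned for values not called in the reported fit. With gate thresholds divided by 2, *BMP2* in *POU5F1* cells was -0.19, *BMP7* in *POU5F1* cells 0.033 and *ID1* in *GABRP* cells -0.054. With thresholds multiplied by 2, *ID1* in *COL3A1* cells was -0.0677 and *BAMBI* in *GABRP* cells 0.0867. *BMP7* in *POU5F1* cells was 0.0518 with cells of no gate as a further group, 0.019 with no filter on low counts and 0.0639 at library totals. *ID1* was -0.001 in *POU5F1* cells with doublets removed and -0.14 in *GABRP* cells at library totals. The latter scaling, chosen after seeing the data, called 8 members in *GABRP* cells against 5. With 1 library left out, *BMP7* in *COL3A1* cells ranged from -0.45 to 0.25, *BMP2* in *COL3A1* cells from 0.10 to 0.67 and *ID1* in *POU5F1* cells from -0.06 to 0.12.

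With the library as a replicate block, 8 members were called in *COL3A1*, 10 in *CRABP1*, 7 in *GABRP*, 7 in *POU5F1* and 10 in *TP63* cells, and no member lost its call. Of all genes tested, the block called 55.2% in *COL3A1* (52.1% without it), 44.3% in *CRABP1* (40.5%), 57.7% in *GABRP* (53.3%), 59.7% in *POU5F1* (54.6%) and 48.4% in *TP63* cells (42.1%). Beside these shares, the block called 19 of the 40 other pathway genes higher and 9 lower in *COL3A1* cells. The counts were 17 and 8 in *CRABP1*, 11 and 16 in *GABRP*, 10 and 21 in *POU5F1* and 9 and 13 in *TP63* cells. Among the members, besides the calls named in the report, the block added *BMP7* in *GABRP* cells (-0.30, adjusted p = 0.045, edgeR). The 2 libraries, 3 FPKM columns of unknown depth, and gates that leave 6489 cells unassigned limit these values. Leaving out each pESC library was planned for the mean FPKM, and was added after seeing the data only for the count of members with at least 1 FPKM in every library.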
